A study of Saccharomyces cerevisiae with 72 samples.

Results

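The 38 nuclear genes described here encode subunits of the mitochondrial respiratory chain and of the ATP synthase, together with 1 protein that delivers copper to cytochrome c oxidase. They were taken by gene symbol from the 5656 genes that had a probe set of their own on an Affymetrix yeast array, and all 38 gave a signal high enough to be tested. Expression was measured in the budding yeast Saccharomyces cerevisiae on 72 arrays, 4 for each of 18 groups. The groups combine 6 genotypes with 3 treatments. The genotypes are wild type (strain KY652) and strains deleted for GCN2 (KY654), GCN4 (KY656), GLN3 (KY640), GCN2 and GLN3 (KY641), or GCN4 and GLN3 (KY643), and each genotype is a single strain. The synthetic medium held ammonium sulfate at 0.5% and dextrose at 2%, and was supplied with every amino acid but histidine. They were left untreated, or were given aminotriazole (3-AT, at 10 mM) or rapamycin (at 200 nM) for 1 h. 3-AT inhibits a histidine biosynthetic enzyme and so starves these cells for histidine, and rapamycin inhibits the TORC1 kinase. The kinase Gcn2 responds to uncharged tRNA and raises translation of the mRNA for Gcn4, an activator of amino acid synthesis genes. Gln3 activates genes that good nitrogen sources repress. The study set these strains side by side to ask how both pathways shape transcription under starvation and rapamycin.

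The respiratory chain passes electrons from NADH and succinate to oxygen, and its proton pumping drives the ATP synthase. Budding yeast has no proton-pumping complex I. Single-polypeptide NADH dehydrogenases take its place, Ndi1 facing the matrix and Nde1 facing the outside. Genes of the chain are under glucose repression in this organism and are activated by the Hap2/3/4/5 complex and by Hap1, and some have an aerobic and a hypoxic form. A few core subunits are made from mitochondrial DNA and the rest, described here, from nuclear genes.

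The values are array signals on a linear scale. Changes are differences of log2 signal ± standard error (SE), with 4 arrays per group and the spread pooled over all 18 groups. A gene passed where limma's Benjamini-Hochberg adjusted p over the 6869 probe sets tested was under 0.05. In bulk samples fewer cells with an mRNA and less mRNA per cell cannot be told apart, and since the labels do not say whether replicates came from separate cultures, p-values cover only the spread between these arrays.

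The deleted genes matched the labels for GCN4 and GLN3. GCN4 read 3.85 to 86.8 on the 24 arrays of strains that lack it and at least 8080 elsewhere, and GLN3 read 0.416 to 39.4 on 36 arrays and at least 124 elsewhere. Over all treatments the GCN2 probe set overlapped, at 74.9 to 226 in the deleted strains and 81.5 to 391 in the others. Within a treatment it was lower in the deleted strains. Untreated it read 74.9 to 122.7 against 201.3 to 256.1, and with 3-AT 157.6 to 226.4 against 226.9 to 391.2, a narrow gap. With rapamycin it read 88.5 to 141.1 against 229.2 to 364.0, apart from 81.5 on replicate 2 of gcn4 gln3. The ratio of actin signal at the 3' end to that at the 5' end, a sign of RNA integrity, was 1.31 to 5.03 on 69 arrays. It was 230 on replicate 1 of gcn2 gln3 with 3-AT, 113 on replicate 1 of the same strain with rapamycin and 43.2 on the second rapamycin replicate of gcn4 gln3. The latter array had a mean correlation of 0.542 with the other arrays, against at least 0.864 for each of the rest, and it was the lowest of its 4 replicates for 26 of the 38 genes and the highest for 10. Because all groups share an estimate of the spread, these arrays also widen the SE in the other groups. The median residual SD over probe sets is 0.41 with them and 0.28 without them. Most counts of the 38 genes below are therefore given with all arrays and again without these 3. Counts from other gene lists are not given without these 3.

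With 3-AT the respiratory mRNAs of wild type went down. Of the 38 genes, 17 fell and none rose, beside 13.6% of all probe sets that fell and 22.2% that rose. At an unadjusted p under 0.05 limma gave 21 lower and 0 higher. The share of all probe sets was not counted at this unadjusted threshold, here or below. The median change of the 38 was -0.55 and that of all probe sets 0.09. In the fit without the 3 arrays 27 fell and 2 rose (CYC1 and COX5B), beside 22.8% and 31% of all probe sets. The split of all probe sets depended on scaling, with 17.4% higher and 18.3% lower after quantile normalization and 15.5% and 23.4% after median centring, which moved the median of all probe sets to -0.17. The members' median was -0.57 and -0.81 under those scalings.

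**Figure D1:**
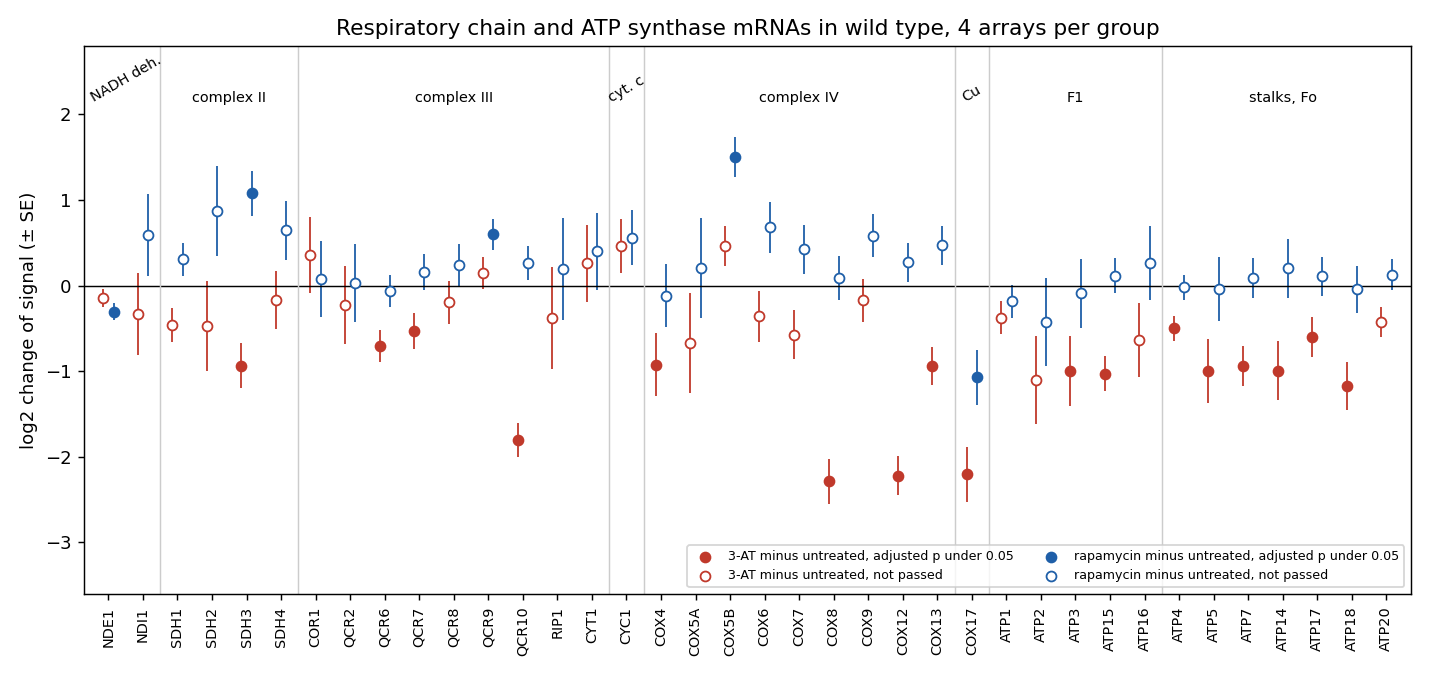
Change of log2 signal with 3-AT (red) and with rapamycin (blue) in wild type for each of the 38 genes, grouped by complex. Points are differences of means of 4 arrays, bars are SE and filled points passed; COX8, COX12, COX17 and QCR10 lie lowest with 3-AT, and COX5B lies highest with rapamycin.

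The largest falls were those of COX8, COX12, COX17 and QCR10. These genes span 237, 252, 210 and 297 bases, where the 38 run from 180 to 1923. The 3-AT change in wild type had a Pearson r of 0.39 with log2 gene length over the 38 genes. Over 5409 named genes it was 0.17, and with rapamycin the values were -0.04 and 0.06. The part of gene length in the 3-AT changes was not tested. COX8, a small membrane subunit of complex IV (cytochrome c oxidase), read 6669.8, 5591, 6888 and 6193 on the untreated wild-type arrays. With 3-AT it read 1069, 1151, 1577 and 1449.7. All 4 treated arrays lay far below all 4 untreated ones, and the change was -2.29 ± 0.26 (adjusted p = 1.3e-10). With rapamycin COX8 read 6702, 6124, 6967 and 7140.2, which overlapped the untreated range.

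COX12, a subunit on the intermembrane space side of complex IV, read 9717, 10169, 11940.2 and 10037 untreated and 1762, 1942, 2692 and 2744 with 3-AT. The groups did not overlap, and COX12 fell by 2.22 ± 0.23 on the log2 scale (adjusted p = 8.3e-12). On the rapamycin arrays it read 11204, 12308, 14106 and 12933, a difference of 0.27 from untreated that did not pass (adjusted p = 0.383).

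QCR10, a small subunit of complex III (the bc1 complex), read 2396, 2162, 3269.6 and 2319 untreated and 512, 747, 989 and 703 with 3-AT. Again every treated array was below every untreated one, and the change was -1.80 ± 0.20 (adjusted p = 8.1e-11). With rapamycin QCR10 read 2447, 3060.2, 3749 and 2921, with overlap and a change of 0.27 (adjusted p = 0.32).

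COX17, the copper chaperone that hands copper on towards complex IV, was lower under both drugs. It read 2241, 2149, 1882 and 1700.0 untreated, 439.5, 373, 516 and 406 with 3-AT, and 846, 1037, 923 and 979.7 with rapamycin. The 3 groups were wholly separate, with the 3-AT arrays lowest and the rapamycin arrays between. The COX17 changes were -2.20 ± 0.32 for 3-AT (adjusted p = 1.0e-07) and -1.07 ± 0.32 for rapamycin (adjusted p = 0.00584), and the 3-AT level was below the rapamycin level by a log2 difference of -1.13 ± 0.32 (adjusted p = 0.0039).

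**Figure D2:**
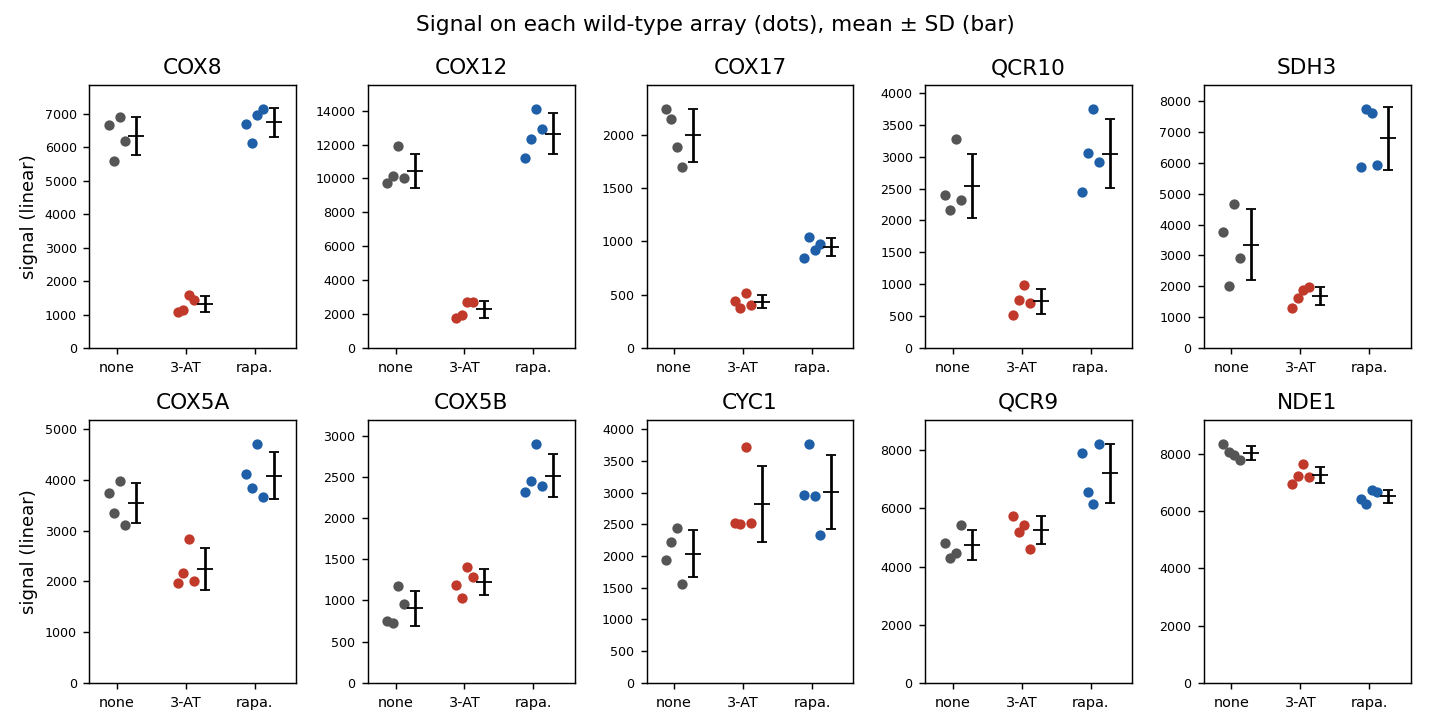
Signal on a linear scale starting at 0 on each wild-type array for 10 genes, untreated (grey), with 3-AT (red) and with rapamycin (blue), with the mean and SD of 4 arrays beside each group. COX8, COX12 and QCR10 are low with 3-AT alone, COX17 is stepped over the 3 treatments, and COX5B and SDH3 are highest with rapamycin.

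The ATP synthase genes were lower with 3-AT in both parts of the enzyme. In the catalytic F1 head 2 of 5 subunit genes fell. ATP15, the epsilon subunit, changed by -1.03 ± 0.20, from a mean signal of 6699 ± 731 (SD, n = 4) to 3263 ± 80.0, and ATP3, the gamma subunit of the central shaft, changed by -1.0 ± 0.40. The catalytic beta subunit gene ATP2 (-1.10 ± 0.51), the alpha subunit gene ATP1 (-0.38 ± 0.19) and the delta subunit gene ATP16 (-0.63 ± 0.43) did not pass with all arrays, although for each of them the 4 treated arrays lay below the 4 untreated ones. All 5 passed without the 3 arrays.

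Of 7 genes for the peripheral stalk, the membrane sector and the dimer interface, 6 fell. The largest change was that of ATP18, subunit i/j, at -1.17 ± 0.28, from 5196 ± 53.8 to 2309.9 ± 159.9 (SD, n = 4). ATP5, the protein that ties the stalk to the head (OSCP), changed by -1.0 ± 0.38, and ATP14 (subunit h) by -1.0 ± 0.35. The stalk subunit genes ATP7 (subunit d) and ATP4 (subunit b) changed by -0.94 ± 0.23 and -0.50 ± 0.15, and ATP17 (subunit f) by -0.60 ± 0.23. ATP20, subunit g of the dimer, read -0.43 ± 0.18 and just missed the threshold (adjusted p = 0.053). All 7 passed without the 3 arrays. A second probe set for ATP14 gave -1.14, close to the value above.

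Within complex IV, COX4 (-0.93 ± 0.37) and COX13 (-0.94 ± 0.23), a regulatory subunit, fell beside COX8 and COX12. The values of COX6 (-0.36), COX7 (-0.57), COX9 (-0.17) and COX5A (-0.67) did not pass with all arrays. COX5A, COX6 and COX7 passed without the 3 arrays.

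Complex III was split. QCR6, the acidic hinge subunit (-0.71 ± 0.19), and QCR7 (-0.53 ± 0.21), which borders cytochrome b, fell with QCR10. The core proteins COR1 (0.36 ± 0.45) and QCR2 (-0.22 ± 0.46), cytochrome c1 (CYT1, 0.26 ± 0.45), the Rieske iron-sulfur protein (RIP1, -0.38 ± 0.60), QCR8 (-0.20 ± 0.25) and QCR9 (0.15 ± 0.19) did not pass, and of these RIP1 alone fell without the 3 arrays (adjusted p = 0.00885). A control probe set for RIP1 read -0.51 ± 0.59. A second probe set of QCR8, which is dim (median signal 144), read -0.03.

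In complex II, succinate dehydrogenase, the membrane anchor gene SDH3 fell. It read 3774, 2002, 4676 and 2932 untreated and 1307, 1611, 1865 and 1975 with 3-AT, and the highest treated array was just under the lowest untreated one. The change was -0.93 ± 0.27 (adjusted p = 0.00391). The flavoprotein gene SDH1 (-0.46), the iron-sulfur subunit gene SDH2 (-0.47) and the second anchor gene SDH4 (-0.17) did not pass. SDH1 and SDH2 fell without the 3 arrays.

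Among the 38, no gene for cytochrome c or for an NADH dehydrogenase passed with 3-AT. CYC1, the main cytochrome c, read 1940.0, 2217, 2435 and 1564 untreated and 2526, 2507, 3720.2 and 2522 with 3-AT. All treated arrays were above all untreated ones, making CYC1 the only one of the 38 with this order, beside 26.4% of all probe sets, while 24 of the 38 had every treated array below, beside 18.6%. The CYC1 change of 0.46 ± 0.32 did not pass with all arrays (adjusted p = 0.265) and did without the 3 (adjusted p = 0.0446). NDI1 changed by -0.33 ± 0.48 and did not pass. NDE1 read 8350.2, 8063, 7958 and 7767 untreated and 6956, 7216, 7635 and 7198 with 3-AT, a small separation of the groups (-0.15 ± 0.10, adjusted p = 0.274).

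The calls for ATP3, COX4, QCR7, ATP5 and ATP17 lie near the threshold and were lost on leaving out single arrays of the comparison. ATP3 lost its call without any 1 of the 8 arrays (changes -1.09 to -0.91) and COX4 without any 1 but 3-AT replicate 4 (-0.95 to -0.87). QCR7 kept its call only without 3-AT replicate 3 or 4, and otherwise read -0.56 to -0.39. ATP5 lost its call without any 1 array but untreated replicate 1 or 3-AT replicate 3 (-0.99 to -0.92). ATP17 lost it without untreated replicate 2 or 3 or 3-AT replicate 1, 2 or 4 (-0.54 to -0.51). Without the 3 arrays of high actin ratio all 5 passed, with limma's adjusted p from 4.6e-12 for ATP3 to 0.00339 for ATP17.

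Rapamycin left most of the 38 genes near their untreated level in wild type. COX5B, SDH3 and QCR9 rose and COX17 and NDE1 fell, beside 22.2% of all probe sets that rose and 15.7% that fell. The median change was 0.20 for the 38 genes and 0.14 for all probe sets. The share of members that rose, 3 of 38, was below that of all probe sets. Leaving out the 3 arrays, 11 rose and 3 fell, beside 33% and 21.8%. Median centring gave 18% of all probe sets higher and 19.5% lower, with 2 members higher and 2 lower, and QCR9 (0.46) no longer passed under it. Quantile normalization gave 19.4% of all probe sets higher and 18.1% lower, with 7 members higher and 1 lower, and NDE1 (-0.16) no longer passed. With the replicate number as a block 5 members were higher, beside 24.8% of all probe sets, since COX6 (adjusted p = 0.0428) and COX9 (adjusted p = 0.0348) passed as well in limma.

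COX5A and COX5B encode the aerobic and the hypoxic form of the same subunit of complex IV. COX5B read 757, 721, 1180.0 and 956 untreated, 1192, 1031, 1401 and 1287 with 3-AT and 2321, 2452, 2904 and 2389 with rapamycin. The rapamycin arrays stood clear of all others, while the 3-AT arrays overlapped the untreated ones at the upper end. COX5B rose by 1.5 ± 0.24 with rapamycin (adjusted p = 4.8e-07), and its change of 0.46 ± 0.24 with 3-AT did not pass with all arrays (adjusted p = 0.121) and did without the 3 (adjusted p = 0.0481).

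COX5A read 3740.3, 3354, 3987 and 3109 untreated, 1972, 2158, 2842 and 2009 with 3-AT and 4116, 3847, 4717 and 3662 with rapamycin. Every 3-AT array was below every untreated array, and the rapamycin arrays overlapped the untreated range. The 3-AT change of -0.67 ± 0.58 did not pass with all arrays (adjusted p = 0.398) and did without the 3 (adjusted p = 0.0025).

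Taken per array, the log2 difference of the COX5B signal from the COX5A signal moved towards the hypoxic form under both drugs. It rose by 1.13 with 3-AT and by 1.30 with rapamycin against untreated wild type, from -1.99 ± 0.31 to -0.86 ± 0.21 and -0.70 ± 0.09 (SD, n = 4). The 4 arrays of each drug lay above the 4 untreated ones, and each exact two-sided permutation test gave p = 0.0286, the smallest value that 4 against 4 arrays allow (adjusted p = 0.0286 over 2 tests). These are differences within an array between probe sets, so they show unequal change and not which form was more abundant.

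SDH3 was the other large rise with rapamycin, at 5877, 7745, 7598 and 5935, above all 4 untreated arrays and all 4 with 3-AT. Its change was 1.08 ± 0.27 (adjusted p = 7.9e-04). The other subunits of complex II changed by 0.88 ± 0.53 (SDH2), 0.65 ± 0.34 (SDH4) and 0.31 ± 0.20 (SDH1), and of these SDH2 and SDH4 rose without the 3 arrays. QCR9, a small subunit of complex III, read 4809, 4278, 4463 and 5424 untreated and 7900.1, 6547, 6150.3 and 8225 with rapamycin, without overlap, and it rose by 0.60 ± 0.19 (adjusted p = 0.00783). With 3-AT it read 5748, 5188, 5430.3 and 4606, which overlapped the untreated arrays.

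CYC1 read 2968, 3773, 2953 and 2337 with rapamycin, which overlapped the untreated range at its lowest array, and the change of 0.56 ± 0.32 did not pass with all arrays (adjusted p = 0.167). NDE1 read 6406, 6246, 6746 and 6659, below all untreated arrays, and fell by 0.30 ± 0.10 (adjusted p = 0.016). Its counterpart facing the matrix, NDI1, changed by 0.59 ± 0.48 and rose only in the fit without the 3 arrays. The remaining genes that rose only in that fit are COX6 (0.68), COX9 (0.58), COX13 (0.47), CYT1 (0.40) and CYC1, and ATP2 (-0.43) fell only there.

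None of the 12 ATP synthase genes passed with rapamycin when all arrays were used, and their changes ran from -0.43 for ATP2 to 0.26 for ATP16. The median change was -0.09 over the 5 genes of the F1 head and 0.09 over the other 7.

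The 2 drugs were also set against each other directly. In wild type 22 of the 38 genes were lower with 3-AT than with rapamycin and none was higher, beside 15.8% and 19.8% of all probe sets. The median difference was -0.84, and 0.03 over all probe sets. At an unadjusted p under 0.05 limma gave 27 lower and 0 higher, with no share of all probe sets counted at that threshold. The count was 32 of 38 without the 3 arrays, beside 24.3%. The differences were largest for COX12 (-2.49 ± 0.23), COX8 (-2.38 ± 0.26), QCR10 (-2.07 ± 0.20), SDH3 (-2.01 ± 0.27) and COX13 (-1.41 ± 0.23). All 7 stalk, membrane and dimer genes of the ATP synthase among the 38 passed. So did 7 of 9 subunits of complex IV, where COX5B was also lower with 3-AT (-1.04 ± 0.24).

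The fall with 3-AT was seen in all 6 genotypes. Beside the 17 genes of wild type, 19 fell in gcn2 (13.1% of all probe sets) and 16 in gcn4 (15.6%). Of the strains without GLN3, the single mutant had 10 (9.23%), the double mutant with gcn2 had 15 (11.3%) and that with gcn4 also 15 (13.6%). In the fit without the 3 arrays the counts in the same order were 25, 26, 22, 25 and 25, beside 21.1%, 23.8%, 17.8%, 18.9% and 22.1%. Taken over the 6 genotypes with equal weight, 29 of 38 fell and 2 rose (COX5B at 0.44 and QCR9 at 0.19), beside 27.7% and 44.8% of all probe sets. Without the 3 arrays 30 fell and 5 rose, beside 32.2% and 48.9%. The genotypes have their own untreated arrays.

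**Figure D3:**
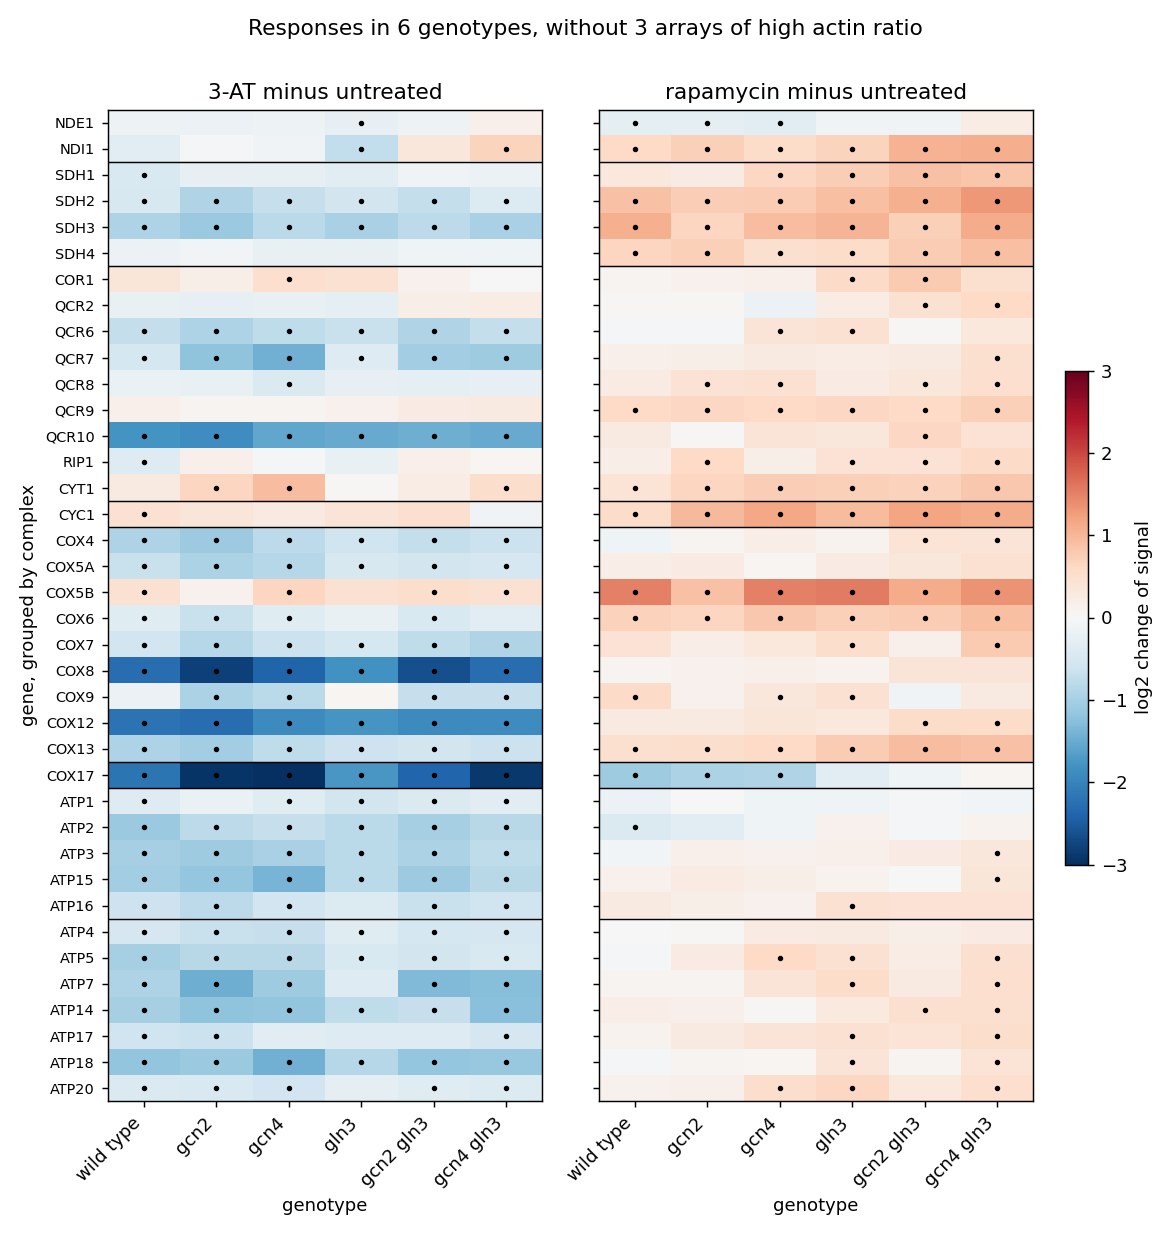
Change of log2 signal with 3-AT (left) and rapamycin (right) in the 6 genotypes for the 38 genes grouped by complex, from the fit without the 3 arrays of high actin ratio; blue is lower and red higher than untreated, and a dot marks an adjusted p under 0.05. COX8, COX12, COX17 and QCR10 are dark in every genotype with 3-AT, and SDH3, QCR9 and COX5B are red in every genotype with rapamycin.

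ATP15, ATP18, COX8, COX12, COX17, QCR6, QCR10 and SDH3 fell with 3-AT in each of the 6 genotypes, 8 of 38 beside 5.04% of all probe sets. Leaving out the 3 arrays, 19 did, beside 9.93%. The changes of COX8 ran from -2.80 in gcn2 to -1.83 in gln3, those of COX12 from -2.29 in gcn2 to -1.77 in gln3 and gcn2 gln3, and those of QCR10 from -1.86 in gcn2 to -1.38 in gcn2 gln3. For ATP3, ATP15, COX8, COX12, COX17 and QCR10 each of the 24 arrays with 3-AT was below each of the 24 untreated arrays, 6 of 38 beside 2.97% of all probe sets.

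**Figure D4:**
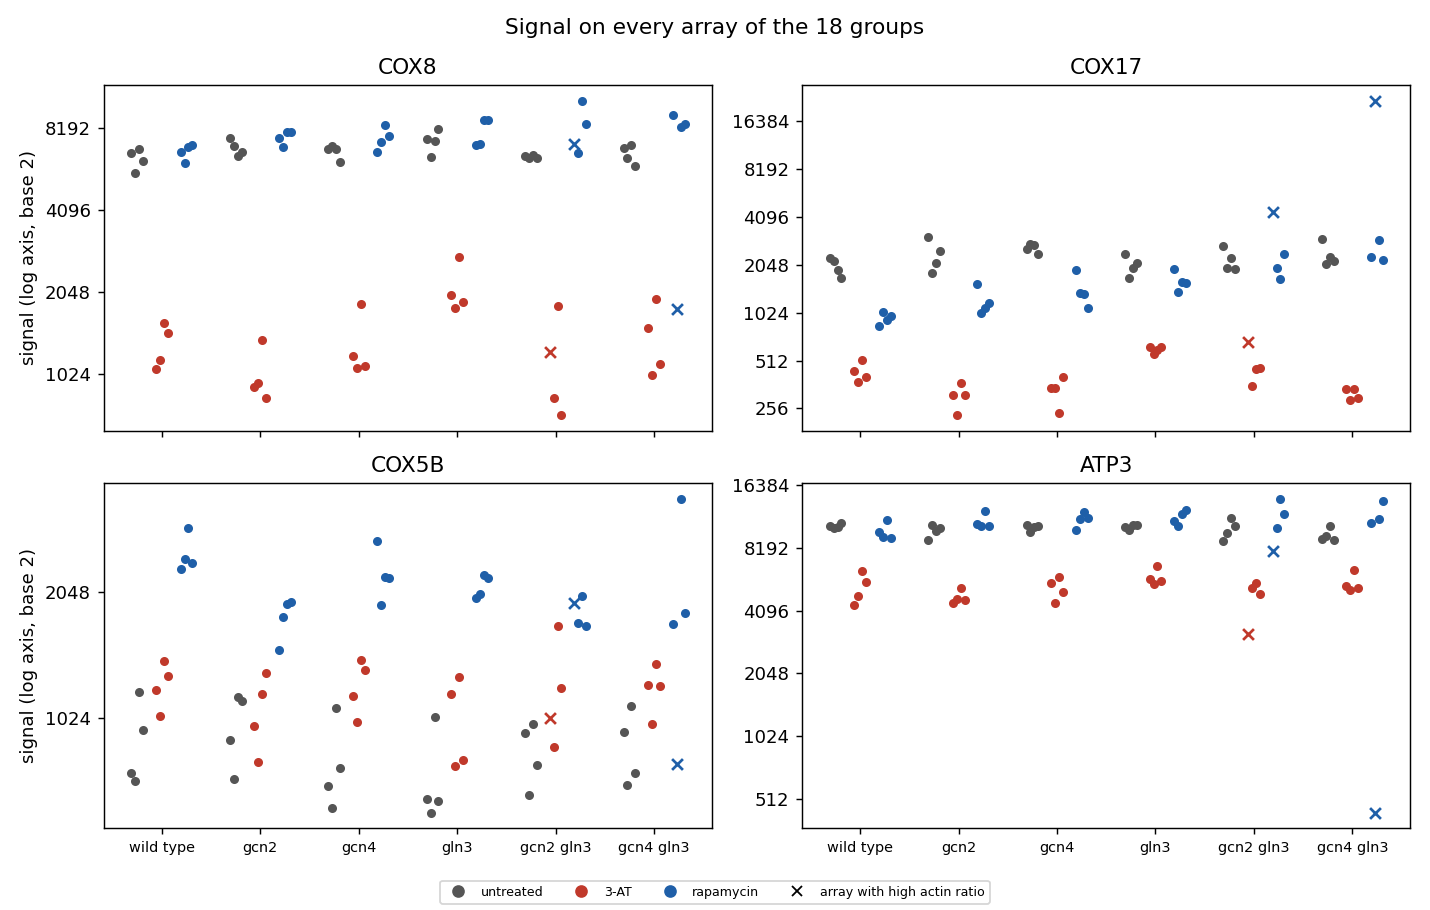
Signal on a log axis (base 2) on each of the 72 arrays for COX8, COX17, COX5B and ATP3, by genotype and treatment, with crosses for the 3 arrays of high actin ratio. For COX8, COX17 and ATP3 the 3-AT arrays (red) lie below the untreated arrays (grey) in every genotype, and on the gcn4 gln3 rapamycin array marked with a cross COX17 reads 21936 while ATP3 reads 440.4.

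Over the 18 group means, computed without the 3 arrays, the profiles of COX8, COX12, COX17 and QCR10 had pairwise Pearson r from 0.896 to 0.995. The profile most like QCR10 was that of COX12 (r = 0.995), and COX12 was also the closest to ATP3 (r = 0.992). CYT1, NDE1 and COR1 had the lowest median r with the other 37 members, at 0.11, 0.15 and 0.17. COX5B was most like QCR9 (r = 0.926), and CYC1 was also most like QCR9 (r = 0.899). These are descriptions over 18 groups that share 6 strains and 3 treatments.

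With rapamycin 3 members rose in gcn2 (17.5% of all probe sets) and 8 in gcn4 (22.9%). The gln3 single mutant had 7 (21.2%), its double mutant with gcn2 had 9 (16.5%) and that with gcn4 had 14 (23%). In the fit without the 3 arrays the counts in this order were 12, 16, 22, 19 and 26, beside 29.8%, 34.7%, 32.5%, 24.3% and 27.2%. The 14 in gcn4 gln3 are not all among the 26. They include COX17 (0.85), which read 21936 on replicate 2 and rose in no genotype without the 3 arrays. With the replicate number as a block 5 rose in gcn2. For gcn4 gln3, a fit of only the 8 arrays compared gave 0 members higher in limma, with 2 at an unadjusted p under 0.05. These 8 arrays still held the rapamycin replicate 2. Of the genes that rose with all arrays COX5B and QCR9 did so in each of the 6 genotypes, beside 8.2% of all probe sets. The changes of COX5B ran from 0.88 in gcn2 to 1.56 in gln3, and those of QCR9 from 0.49 in gcn4 gln3 to 0.74 in gcn2 gln3. With the 3 arrays left out COX6, COX13, CYC1, CYT1, NDI1, SDH2, SDH3 and SDH4 joined them, making 10 of 38 beside 15.4%.

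Over the 6 genotypes with equal weight 22 of 38 rose with rapamycin and 3 fell, beside 41.9% and 25.8% of all probe sets. Leaving out the 3 arrays, 34 rose and 2 fell, beside 47.4% and 28.9%, and the median change was 0.34. All 4 genes of complex II rose in both fits, and CYC1 rose by 0.84 with all arrays and by 0.99 without the 3. After median centring 13 rose and 4 fell, beside 30.9% and 35.1% of all probe sets.

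Whether losing a regulator changed a response was tested as the mutant's change minus that of wild type, for 5 mutants and both drugs. With all arrays no member passed in 9 of these 10 comparisons, in which 0 to 2 members had an unadjusted p under 0.05 in limma's test. The shares of all probe sets that passed in either direction were 3.42%, 5.63%, 0.0582%, 4.99% and 5.56% for 3-AT in gcn2, gcn4, gln3 and their double mutants, and 0.757%, 1.06%, 0.903% and 3.3% for rapamycin in the first 4 of these strains. In the remaining comparison, rapamycin in gcn4 gln3, COX17 and NDE1 passed as higher than in wild type, beside 1.25% of all probe sets (4.12% in either direction). Leaving out the 3 arrays, 16 values passed over the 10 comparisons.

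COX17 accounted for 6 of these 16 values, and with all arrays COX17 and NDE1 passed once each. The COX17 log2 changes with rapamycin were -1.07 in wild type, -0.96 in gcn2 and -0.90 in gcn4, all 3 of which passed. In gln3 its change was -0.32, which did not pass. Untreated gln3 arrays read 2397, 1676, 1942 and 2090.2, and those with rapamycin 1923, 1378, 1600.0 and 1574, so the groups overlapped. In gcn4 gln3 COX17 read 2962, 2054, 2303 and 2172 untreated and 2277, 21936, 2943 and 2204 with rapamycin. The high value is replicate 2, the array with the low correlation, and without it the groups overlap.

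The rapamycin response of COX17 was higher than in wild type by 1.92 ± 0.45 in gcn4 gln3 with all arrays (adjusted p = 0.0043) and by 1.13 ± 0.24 without the 3 arrays (adjusted p = 6.9e-04). In a fit of only the 16 arrays compared, which still held the rapamycin replicate 2 of gcn4 gln3, the difference did not pass (adjusted p = 0.726). In gcn2 gln3 it was 1.22 ± 0.45 with all arrays, which did not pass (adjusted p = 0.174), and 0.93 ± 0.24 without the 3 (adjusted p = 0.00556). In gln3 it was 0.75 ± 0.45 with all arrays (adjusted p = 0.853) and 0.75 ± 0.23 without the 3 (adjusted p = 0.0461). These 3 strains lack GLN3, and they are compared with the same wild-type arrays. In gcn2 and gcn4 the difference for COX17 with rapamycin did not pass in either fit.

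The 3-AT fall of COX17 was deeper than in wild type by 0.73 in gcn2, 0.79 in gcn4 and 0.70 in gcn4 gln3, which passed only without the 3 arrays (adjusted p = 0.0314, 0.0123 and 0.0295). In the same fit the 3-AT responses of QCR7 (-0.67 in gcn2 and -0.92 in gcn4 relative to wild type) and COX9 (-0.77 and -0.63) were lower in both strains. RIP1 in gcn2 (0.53), CYT1 in gcn4 (0.67) and NDI1 in gcn4 gln3 (1.00) were higher than in wild type. With rapamycin COX4 (0.54) was higher and COX9 (-0.68) lower in gcn2 gln3. None of these passed with all arrays. In the fit without the 3 arrays the shares of all probe sets that were higher and lower were 3.45% and 5.43% for 3-AT in gcn2, 8.31% and 6.11% in gcn4, and 8.52% and 6.58% in gcn4 gln3. For rapamycin they were 3.46% and 4.4% in gcn2 gln3, and 2.81% in gln3 and 3.25% in gcn4 gln3 were higher.

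NDE1 stood apart already without treatment. It read 12120.2, 13647, 11297 and 11344 in gcn4 and 11403, 11146, 11653 and 13316 in gln3, against 8350.2, 8063, 7958 and 7767 in wild type. Every array of both mutants was above every wild-type array, and NDE1 was higher by 0.59 ± 0.10 in gcn4 (adjusted p = 1.1e-04) and by 0.56 ± 0.10 in gln3 (adjusted p = 6.5e-04). It was the only member to pass among the 5 untreated comparisons, beside 0.291% of all probe sets that were higher in gcn4 and 0.175% in gln3. No member passed in the other 3 strains, where 0.146% (gcn2), 1.31% (gcn2 gln3) and 1.19% (gcn4 gln3) of all probe sets did and limma gave 1 member an unadjusted p under 0.05. In the gln3 comparison the call was lost in a fit of only the 8 arrays compared. In untreated gcn4 gln3 NDE1 read 9111, 7819, 9246 and 8173, which overlapped wild type. On the rapamycin arrays of that strain it read 11002, 10202, 9327 and 9621, above its untreated arrays, and its response was higher than that of wild type by 0.53 ± 0.15 (adjusted p = 0.021). Without untreated replicate 2 of gcn4 gln3 this difference was 0.48 and did not pass, and without the 3 arrays it was 0.52 ± 0.13 (adjusted p = 0.00593).

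Other genes of respiration were counted from lists chosen by function, or by symbol for the mitochondrial ribosomal proteins. Among 10 regulators measured, HAP4, ROX1 and SNF1 rose with 3-AT in wild type and none fell, 3 of 10 beside 22.2% of all probe sets that rose. HAP4, the activating subunit of the Hap2/3/4/5 complex, read 652 ± 76.1 untreated, 1529 ± 94.9 with 3-AT and 726 ± 81.0 with rapamycin (SD, n = 4). The 3-AT change of 1.24 ± 0.36 passed (adjusted p = 0.00527), and the rapamycin change of 0.16 ± 0.36 did not. ROX1, the repressor of hypoxic genes, read 160.4 ± 27.6 untreated, 1125 ± 181 with 3-AT and 198 ± 47.2 with rapamycin. It rose by 2.81 ± 0.26 with 3-AT (adjusted p = 8.8e-14) and its rapamycin change of 0.29 ± 0.26 did not pass. HAP1, the heme-dependent activator, changed by 0.15 ± 0.35 with 3-AT and by -0.17 ± 0.35 with rapamycin, and passed with neither drug. With rapamycin HAP2 (0.76), HAP5 (1.07), both DNA-binding subunits of the same complex, and CAT8 (1.27), an activator of genes for growth without glucose, rose, again 3 of 10 beside 22.2%. CAT8 was above background (the 30th percentile of the array) on 2 of 4 untreated arrays and on all 4 with rapamycin, so its fold is uncertain.

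**Figure D5:**
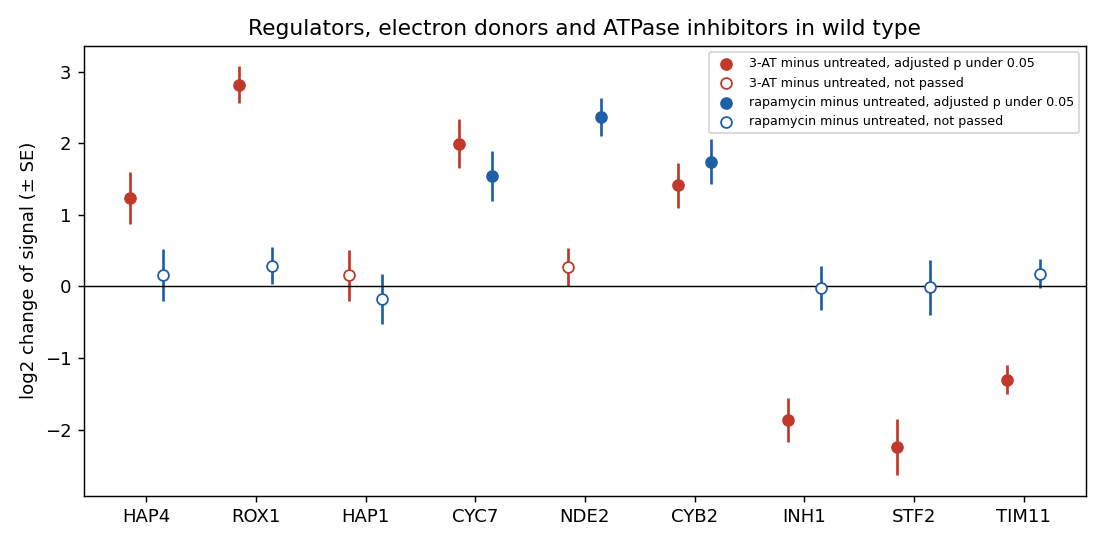
Change of log2 signal with 3-AT (red) and rapamycin (blue) in wild type for 9 genes outside the 38; bars are SE of differences of 4 against 4 arrays and filled points passed. HAP4, ROX1, INH1, STF2 and TIM11 have filled points for 3-AT alone, NDE2 for rapamycin alone, and CYC7 and CYB2 for both drugs.

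Among 12 other carriers, electron donors and proteins that bind the ATP synthase, 2 rose and 3 fell with 3-AT, 16.7% and 25% of the list beside 22.2% and 13.6% of all probe sets. CYC7, the hypoxic form of cytochrome c, read 117 ± 47.3 untreated, 446 ± 84.4 with 3-AT and 335 ± 106 with rapamycin, and rose under both (1.99 ± 0.34 and 1.54 ± 0.34), with 3 of 4 untreated arrays above background. CYB2, the lactate dehydrogenase that reduces cytochrome c, also rose under both (1.41 ± 0.31 and 1.74 ± 0.31). INH1, the inhibitor of ATP hydrolysis by the synthase, read 2411 ± 456 untreated and 661 ± 131 with 3-AT, a change of -1.87 ± 0.30, and 2403 ± 640.1 with rapamycin. STF2, a factor first described with that inhibitor, fell by 2.25 ± 0.39 with 3-AT, and TIM11, subunit e of the ATP synthase dimer, by 1.30 ± 0.20. NDE2, the second external NADH dehydrogenase, read 891 ± 303 untreated and 1038 ± 125 with 3-AT, with no call (0.27 ± 0.27), and 4460.1 ± 808 with rapamycin, a rise of 2.36 ± 0.27 (adjusted p = 8.0e-11), while NDE1 fell. With rapamycin CYB5 (-0.89), a microsomal cytochrome, was the only gene of this list to fall.

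Of 49 assembly and expression factors for the complexes, 5 rose and 19 fell with 3-AT in wild type, and 6 rose and 7 fell with rapamycin. The shares with 3-AT were 10.2% and 38.8%, beside 22.2% and 13.6% of all probe sets. With rapamycin they were 12.2% and 14.3%, both below the 22.2% and 15.7% of all probe sets. Among those that fell with 3-AT were CBP6 (-2.05 ± 0.29), which acts in cytochrome b synthesis and was above background on only 1 of 4 treated arrays, COA3 (-1.70 ± 0.19), an assembly factor of complex IV, ATP11 (-1.66 ± 0.23), a chaperone of F1, CBP4 (-1.59 ± 0.29), an assembly factor of complex III, and SDH7 (-1.47 ± 0.27), one of complex II. With rapamycin CBP1 (-1.18 ± 0.18), which protects cytochrome b mRNA, and OXA1 (-1.06 ± 0.31), the inner membrane insertase, fell, and SDH6 (1.04 ± 0.34), another assembly factor of complex II, rose.

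Mitochondrial ribosomal protein genes were taken by symbol alone (MRPL, MRPS, MRP or RSM and a digit). Of 67 genes so taken, 46 fell and none rose with 3-AT, 68.7% lower beside 13.6% of all probe sets. With rapamycin 31 fell and 1 (MRP8) rose, 46.3% lower beside 15.7%, and leaving out single arrays gave 24 to 31 lower. Whether MRP8 encodes such a ribosomal protein was not checked. The medians were -0.89 and -0.61. MRPL19 read 928 ± 68.5 untreated, 212 ± 24.2 with 3-AT and 346 ± 34.0 with rapamycin (SD, n = 4), and MRPL17 read 1198 ± 89.9, 415 ± 27.1 and 461 ± 59.0. The ATP synthase genes above, by contrast, had medians of -1.0 and -0.94 with 3-AT and of -0.09 and 0.09 with rapamycin.

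Coenzyme Q synthesis, the citrate cycle and heme synthesis were counted in the same way, beside 13.6% of all probe sets lower with 3-AT, 15.7% lower with rapamycin and 22.2% higher with either. With 3-AT CAT5 (-1.68 ± 0.26), COQ6 (-0.76 ± 0.18) and COQ1 (-0.47 ± 0.18) of 10 coenzyme Q genes fell, as did FUM1, which encodes fumarase, of 11 citrate cycle genes (-0.97 ± 0.37). With rapamycin COQ1 fell (-0.43 ± 0.18) and CIT1, the mitochondrial citrate synthase, rose from 4034 ± 1277 to 9780.1 ± 1235 (1.32 ± 0.26, adjusted p = 3.8e-05). Of 8 heme synthesis genes HEM12 fell with rapamycin (-1.30 ± 0.21). HEM3 passed as lower too, but it was above background on none of the 4 rapamycin arrays and 2 of 4 untreated ones, so no fold is given. The 5 mitochondrially encoded subunits on the array changed by -0.46 to -0.15 with 3-AT and by 0.14 to 0.57 with rapamycin, and none passed with either drug. The calls for SNF1, COQ1 and FUM1 with 3-AT, and for HAP5, COQ1 and HEM3 with rapamycin, were lost on leaving out single wild-type arrays, in 5, 3, 8, 5, 7 and 4 of 8 cases, and all 6 held without the 3 arrays of high actin ratio.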

How the data were processed

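Total RNA was made by the hot phenol method and 5 ug gave biotinylated cRNA, per the labels' protocols. The authors deposited linear signal intensity for 9335 probe sets on 72 arrays, made with GCOS and MAS5 per the submitters' processing notes, with versions not given in the sources used here. The trimmed mean (2% at each end) is 1001 on every array, which shows scaling of each array before deposit. The number of arrays limits the precision.

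From these intensities, signals were raised to a floor of 16.5 (their 10th percentile) and log2 transformed. Control probe sets (60) were left out, and a gene with several probe sets was represented by its brightest. Probe sets annotated to several genes (328) or to no gene (2443) stayed in, each by itself and without a gene name, which left 8427 before the filter. Probe sets above the 30th percentile of the array's signals on 4 or more arrays were tested, which left 6869. Genes were named through GEO's platform annotation and the RefSeq table of assembly R64, which holds all 38 members. limma 3.58.1 (R 4.3.3) fitted 18 group means with 54 residual degrees of freedom and 31 contrasts, with Benjamini-Hochberg adjustment within each contrast. The exact permutation test used scipy 1.17.1, and figures used matplotlib 3.10.9. The fit was tested on simulated arrays with independent errors and known changes added in wild type with 3-AT. The simulation held no aberrant array and no variation shared by replicate number, so it does not show how the fit handles these.

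The members and the gene lists were chosen with earlier results of these data known. Named with values on every array were the 4 largest rises and falls that passed in wild type with each drug, COX5A, COX5B, COX17, COX8, CYC1 and NDE1, and from the other lists up to 5 genes with the largest changes that passed, with HAP1, HAP4, CYC7, INH1, NDE2 and ROX1. MRPL17 and MRPL19 were picked from the latter after their values were seen. Deviations from the group means were correlated between arrays of the same replicate number (mean r 0.23, against -0.07 for other numbers). Every same-number r was above 0.1 in 60 of 153 pairs of groups, among them 8 of the 12 comparisons of a drug with untreated in 1 genotype (in wild type rapamycin but not 3-AT), so the numbers carry shared variation in part of the design, and the blocked counts are given where they differ by over 1.5 times. The labels do not say what the numbers mark. The median residual SD was 0.37 with the block and 0.41 without. Alternatives covered the floor, scaling, filter, replicate block, array weights, probe set choice, arrays fitted and single arrays left out. Cross-hybridisation between COX5A and COX5B and similar pairs was not tested. Promoter sequences were not used here.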

Additional observations from a re-analysis of the deposited data

Results flagged for a closer look

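In 36 groups of 4 arrays, 1 array lay apart from the rest by Dixon's test in 2, and chance alone gives about 1 in 20. CYC1 read 3720.2 on replicate 3 of wild type with 3-AT, where the others read 2507 to 2526. COX17 read 21936 on replicate 2 of gcn4 gln3 with rapamycin, where the others read 2204 to 2943, and that array has an actin 3'/5' ratio of 43.2. The rapamycin response differed between gcn4 gln3 and wild type for COX17 (1.92 ± 0.45) and for NDE1 (0.53 ± 0.15) in limma's test of the difference. Without that array and the other 2 of high actin ratio these differences are 1.13 and 0.52, and both passed. The part of RNA quality in them beyond this was not tested.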

How the results depend on the processing

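Over 119 results 2457 values under alternatives were computed. Direction could change only in the 1858 values of the 98 results on single genes, all of which had passed with all arrays. Of these values 0 changed direction, and 73 of the 98 results passed under every alternative that could test them. Counts depended on the 3 arrays of high actin ratio and on how the spread was pooled. Members lower with 3-AT in wild type went from 17 to 27 without the 3 arrays and 27 with array weights. In gcn4 the 16 became 26 without the 3 arrays, 28 with array weights, 26 with only the arrays compared and 26 after median centring, and in gln3 the 10 became 22, 25, 20 and 21 in that order. In gcn2 gln3 the 15 became 25 without the 3 arrays, 24 with weights and 27 after median centring, and in gcn4 gln3 they became 25, 24 and 25. Median centring also raised the share of all probe sets lower with 3-AT. In gcn4, gln3, gcn2 gln3 and gcn4 gln3 it was 29.9%, 19.9%, 25.1% and 27.6%, against 15.6%, 9.23%, 11.3% and 13.6% before. Shares with array weights or with only the arrays compared are not given, here or below.

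Members higher with rapamycin in wild type went from 3 to 11 without the 3 arrays, 11 with weights, 10 with only the arrays compared and 7 after quantile normalization. In gcn2 the 3 became 12, 12, 12 and 7 in that order. In gcn4 the 8 became 16, 19 and 15, and 3 after median centring. In gln3 the 7 became 22, 23 and 18, with 12 after quantile normalization and 3 after median centring. In gcn2 gln3 the 9 became 19 without the 3 arrays and 17 with weights. In gcn4 gln3 the 14 became 26, 26 and, with only the arrays compared, 0 (2 at an unadjusted p under 0.05 in limma). The fit that gave 0 still held the rapamycin array of high actin ratio. Over all genotypes the 22 became 34, 34 and, after median centring, 13. Shares of all probe sets higher after quantile normalization were 19.4%, 13.8% and 15% in wild type, gcn2 and gln3. Without it they were 22.2%, 17.5% and 21.2%. After median centring 13.2% were higher in gcn4, 12.5% in gln3 and 30.9% over all genotypes. Before centring these shares were 22.9%, 21.2% and 41.9%. Responses that differed from wild type went from 2 to 16, 11 and 5, and untreated differences from 2 to 1 with only the arrays compared. Mitochondrial ribosomal protein genes lower with 3-AT went from 46 to 28 of those above background on all arrays, and lower with rapamycin from 31 to 47 with weights. Apart from fewer probe sets or arrays in the fit, the cause was not tested.

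With the replicate number as a block, members higher with rapamycin were 5 in wild type and 5 in gcn2. No other nonzero count compared under the alternatives moved by over 1.5 times. Where no member had passed, COX5B passed in limma as higher with 3-AT in wild type (adjusted p = 0.0230), beside 24.5% of all probe sets. QCR7 passed in limma as lower in the 3-AT response of gcn4 relative to wild type (adjusted p = 0.0162), with no share given. The block gave 33 member calls that were not made without it and lost 0.

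Leaving out 1 array at a time gave 12 to 16 members lower with 3-AT in wild type, 16 to 19 in gcn2, 15 in gcn4, 9 to 10 in gln3, 11 to 17 in gcn2 gln3, 14 to 16 in gcn4 gln3 and 29 over all genotypes. Members higher with rapamycin were 3 to 4, 2 to 3, 4 to 8, 6 to 8, 5 to 9, 10 to 19 and 21 to 30 in the same order. Members lower with 3-AT than with rapamycin were 18 to 22 in wild type, differing responses 1 to 7 and untreated differences 2. Calls near the threshold between the drugs were lost on leaving out single arrays for ATP5 and SDH2 (7 of 8 each), ATP17 (2), COX9 and QCR7 (1 each), and with rapamycin for MBA1 and MRPL11 (4 each) and MRP8 (1).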
